A study of Rattus norvegicus with 18 samples.

Results

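Ttr, Sostdc1, Folr1, Calml4, Ace, Aqp1 and Foxj1 are genes known from the choroid plexus, the epithelium that makes cerebrospinal fluid, and from the ependyma, the ciliated lining of the ventricles. Their levels were followed on 18 Affymetrix rat expression arrays of total RNA from brain. The 7 genes were chosen by name, as every probe set whose single symbol in the platform annotation was one of them. That gave 9 probe sets, 1 each for Ttr, Sostdc1, Folr1, Calml4 and Foxj1 and a pair each for Ace and Aqp1, among 31099 probe sets and 14218 named genes. The arrays formed 6 groups of 3: hippocampus, amygdala and cortex of rats under Chronic Immobilization Stress, and the same 3 regions of handled, unstressed rats. The labels give no strain, sex, age or stress schedule. They leave unsaid if separate animals, pools or repeats of 1 RNA made up a group, so the p-values rest on array-to-array spread that could be technical. Whether 1 rat gave tissue to several regions is also unstated, and every contrast across regions treated the 18 arrays as independent.

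The choroid plexus secretes transthyretin, the carrier of thyroid hormone and, with retinol-binding protein, of vitamin A in cerebrospinal fluid, and it moves folate, ions and water between blood and fluid. Its fronds hang in the ventricles beside the hippocampus and reach the temporal horn near the amygdala, while most of the neocortex lies away from it. The ependyma moves the fluid with motile cilia, whose genes are switched on by the transcription factor Foxj1. These genes are not private to such cells: Ace is also known from striatal neurons and vessels, and Aqp1 from red blood cells.

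Region and treatment were taken from the titles and descriptions, because a further label field names the amygdala for all 18 arrays. Between handled arrays, hippocampus exceeded cortex for 5 of 7 hippocampus markers and fell below it for 2, and of 10 neocortex markers it was lower for 8 and higher for 2. Of all probe sets tested, 12.3% were called higher in hippocampus and 13.7% lower. Amygdala exceeded cortex for 5 of 7 of its own markers and fell below it for 2, but of the 10 neocortex markers only 3 were called lower in amygdala and 2 higher. Here 8.13% of all probe sets were called higher in amygdala and 6.57% lower. Array medians lay between 49.1 and 56.4 intensity units.

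In bulk tissue, fewer cells of a type and less RNA per cell cannot be told apart. Several defining markers of the choroid plexus were dim here, although 23 of 45 other genes listed for it, among them Msx1, Krt8, Trpm3, Slc12a2 and Enpp2, passed the filter on low intensity. Kl, Otx2, Kcnj13, Tmem72 and Cldn2 had group means of at most 23.9 in each of the 6 groups, below the 40th percentile of mean intensity over all probe sets, which was 31.68. Ttr stood far above that line in hippocampus and amygdala, with a mean of 972 over the 18 arrays, and Calml4 (62.5), Folr1 (55.9), Aqp1 (46.6), Foxj1 (37.3), Sostdc1 (36.6) and Ace (36.5) lay not far above it. The second probe sets of Aqp1 (mean 14) and Ace (mean 11.0) fell below it, so 7 of the 9 probe sets passed this filter and every gene kept 1 of them. Set against each other, these means belong to different probe sets and give no order of transcript abundance.

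The sequence just before the start of Ttr is shown because Ttr carries most of the results below, and because forkhead factors, the family that holds Foxj1, are known to bind the Ttr promoter in liver. It is the stretch of 250 bases upstream of the annotated start in the RefSeq promoter table, at chr18:12218508-12218757 of the rat build GRCr8, plus strand; capitals mark matches to the forkhead motif TNTTGAC on either strand. The arrays' annotation is not tied to that build.
Ttr: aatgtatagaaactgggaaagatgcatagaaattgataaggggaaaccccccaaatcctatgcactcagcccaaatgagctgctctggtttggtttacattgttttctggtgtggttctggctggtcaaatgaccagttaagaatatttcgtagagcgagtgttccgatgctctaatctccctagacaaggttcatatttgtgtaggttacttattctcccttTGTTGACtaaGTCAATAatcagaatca
The plus-strand match begins 27 bases before the annotated start and the minus-strand match 17 bases before it. At least 1 match to this motif is present in 7.89% of the 33469 windows of the same length. The table also held Calml4, Ace and Aqp1, whose windows had no TNTTGAC match. Of the other motifs searched on both strands, the Otx motif TAATCC, found in 6.34% of windows, was present in the Ace window and not in those of Ttr, Calml4 or Aqp1. TGTTTAC, a second forkhead form found in 3.21% of windows, and the glucocorticoid receptor palindrome, AGAACA and TGTTCT with 3 bases between them, found in 0.012%, had no match in these 4 windows.

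Ttr was the gene of the 7 with the largest contrast, both between regions and between treatments. Stressed hippocampus had intensities of 3408, 3549 and 3274 and handled hippocampus 1038, 1128 and 1138. Stressed amygdala had 678, 701 and 721 and handled amygdala 558, 495 and 482. Stressed cortex had 58.3, 32.1 and 68.1 and handled cortex 40.4, 65.2 and 57.9. The order was thus stressed hippocampus, handled hippocampus, stressed amygdala, handled amygdala and then both cortex groups. Neighbours in that order did not overlap, apart from the cortex groups, whose arrays were interleaved. On an average array Ttr ranked at the 99.4th percentile of all probe sets in stressed hippocampus, the 96.5th in handled hippocampus, and near the middle, at the 50.05th, in stressed cortex.

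**Figure D1:**
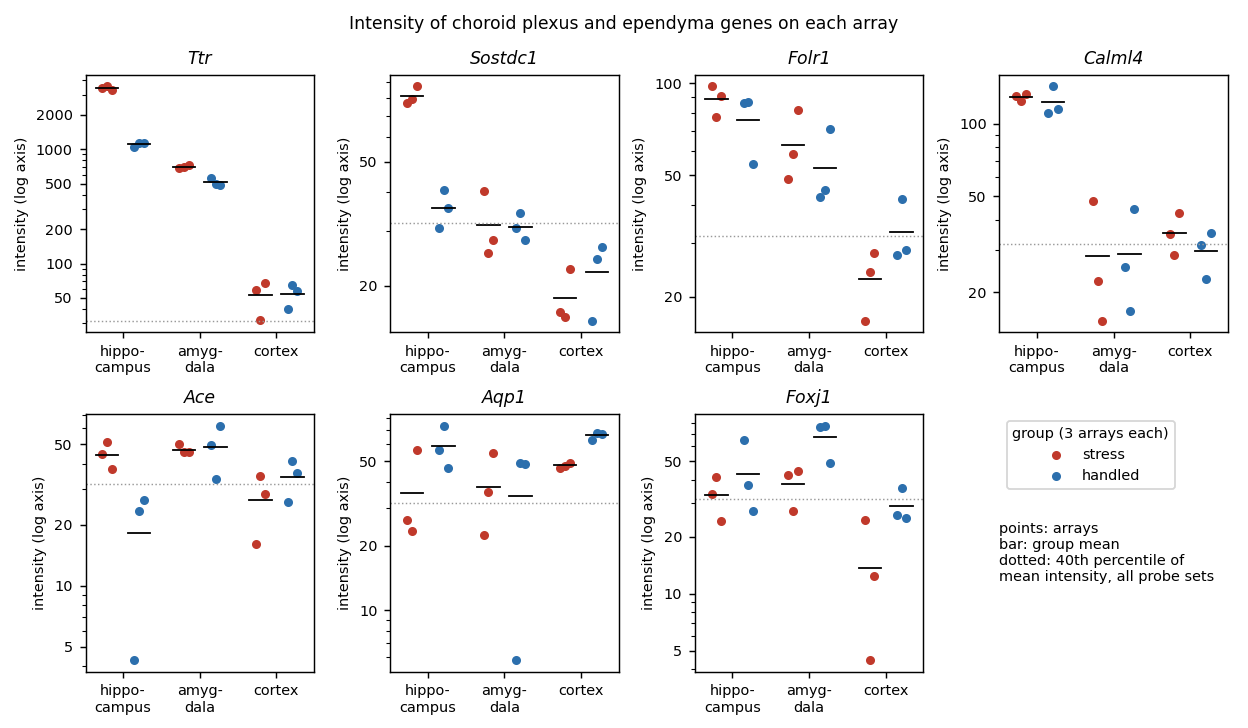
Intensity of each gene on every array (log axis, arbitrary units), with stress left of handled in each region; points are arrays, bars are means of 3 arrays, and the dotted line is the 40th percentile of mean intensity over all probe sets (31.68). For Ttr the stressed hippocampus arrays lie between 3274 and 3549, above the handled ones at 1038 to 1138; for Sostdc1 they lie between 77.3 and 87.3, above 30.6 to 40.7.

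Stress against handling was tested on log2 of the intensity plus 16, with limma fitted to all 18625 probe sets past the filter; a gene was called when its Benjamini-Hochberg adjusted p was below 0.05. In the hippocampus 2 of the 7 genes rose and none fell, where 0.102% of all probe sets tested were called higher and 0.263% lower. With no filter Ttr alone was called, where 0.0451% of all probe sets were called higher and 0.135% lower. Ttr averaged 3410.5 ± 137 in stressed hippocampus and 1102 ± 55.0 in handled hippocampus (SD, n = 3 each), a ratio of 3.10. Its log2 change was 1.62 ± 0.14 (SE), with an adjusted p of 4.845e-07. Each stressed array was brighter than every handled one. The call held under every processing alternative tried and with each of the 6 hippocampus arrays left out in turn (log2 change 1.58 to 1.65).

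Sostdc1, a secreted antagonist of bone morphogenetic proteins that also dampens Wnt signalling, was the other gene that rose. Its intensities were 77.3, 79.7 and 87.3 in stressed hippocampus and 30.6, 40.7 and 35.4 in handled hippocampus. No stressed array overlapped a handled one, and the handled values sat close to the filter line. Sostdc1 entered the test through stressed hippocampus: with that group left out, its mean intensity would have fallen below that line (31.68). Means outside that group ran from 18.3 in stressed cortex to 35.5 in handled hippocampus. In stressed and handled hippocampus the means were 81.4 ± 5.24 and 35.5 ± 5.05 (SD, n = 3 each), and the log2 change was 0.92 ± 0.19 with an adjusted p of 0.0334. That call was narrow: it was lost with each of the 6 hippocampus arrays left out in turn (adjusted p 0.0560 to 0.1279), with an offset of 1 in place of 16 (0.1007), with no filter (0.0645) and with the hippocampus arrays fitted alone (0.0924).

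Ace, the angiotensin-converting enzyme, had 44.6, 51.3 and 37.7 in stressed hippocampus and 4.30, 23.5 and 26.7 in handled hippocampus. The groups did not overlap, but 1 handled array was near 0 and the gene did not pass, with a log2 change of 0.89 ± 0.26 and an adjusted p of 0.1565. Its dimmer probe set had 12.5, 1.09 and 19.9 against 4.65, 5.27 and 3.40, values too low to rank. Thus 3 of the 7 genes had all stressed hippocampus arrays above all handled ones, where 7.12% of all probe sets did, and none had the reverse order, where 7.04% did.

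The remaining genes gave no call in the hippocampus. Folr1, the folate receptor that carries folate across the choroid plexus, had 97.8, 77.4 and 90.9 under stress and 86.4, 86.8 and 54.5 after handling, a log2 change of 0.20 with a 95% interval of -0.23 to 0.64. Calml4, a calmodulin-like protein, had 131, 124 and 134 under stress and 111, 143 and 115 after handling, a change of 0.07 with an interval of -0.41 to 0.56. Both sets of arrays overlapped, and both intervals end below the lower bound of that for Ttr, 1.32.
Aqp1, the water channel of the choroid plexus surface, had 26.3, 23.6 and 56.2 under stress and 56.4, 73.4 and 46.6 after handling, a log2 change of -0.58 with an interval of -1.24 to 0.07. Its dimmer probe set went the other way, with 27.1, 17.7 and 28.9 under stress and 29.5, 10.4 and 6.13 after handling (log2 change 0.43, adjusted p 0.6003 with no filter). Foxj1 had 33.5, 41.3 and 24.2 under stress and 64.5, 37.4 and 27.2 after handling, a change of -0.23 with an interval of -0.78 to 0.31. The arrays of both genes overlapped between treatments.

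**Figure D2:**
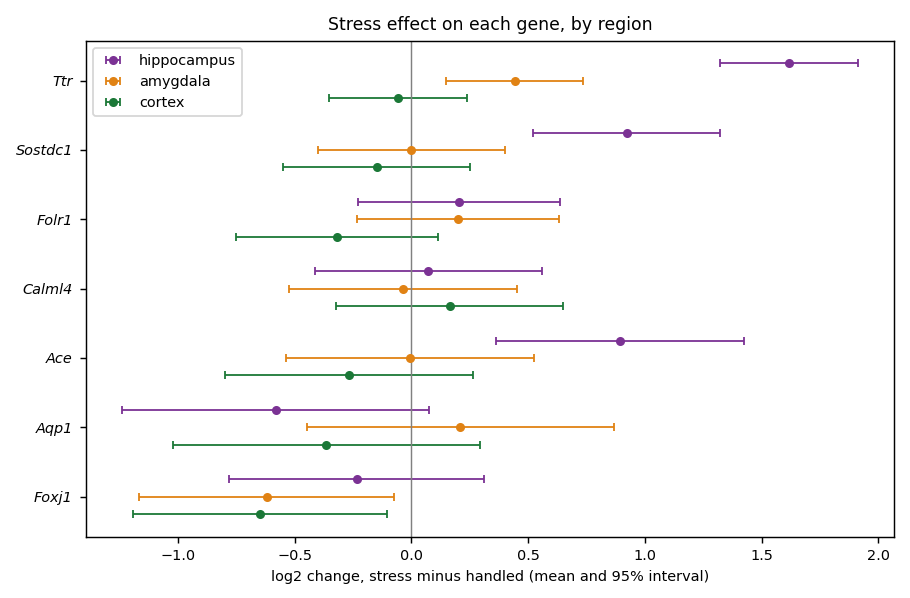
Stress minus handled for each gene (log2 scale, limma estimate from 3 against 3 arrays, bar for the 95% interval), by region. In hippocampus Ttr (1.62) and Sostdc1 (0.92) lie to the right of 0; Foxj1 lies to the left of 0 in amygdala (-0.62) and cortex (-0.65), where its adjusted p values were 0.2822 and 0.3752.

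In the amygdala none of the 7 genes passed, while 0.456% of all probe sets were called higher and 1.95% lower. At an unadjusted p under 0.05 limma gave Ttr and Foxj1, where 13.6% of all probe sets reached that level. Ttr averaged 700 ± 21.7 in stressed amygdala and 512 ± 40.6 in handled amygdala (SD, n = 3 each), with no overlap between the arrays listed above. The log2 change was 0.44 ± 0.14, with an adjusted p of 0.1264 in the fit over all arrays and of 0.0262 with the amygdala arrays fitted alone. An offset of 64 also brought it past the threshold, with a change of 0.41 and an adjusted p of 0.0151.
Foxj1 had 42.4, 27.3 and 44.3 in stressed amygdala and 75.5, 77.1 and 48.9 in handled amygdala. All stressed values were below all handled ones, by a narrow margin, and the log2 change of -0.62 ± 0.26 had an adjusted p of 0.2822. So 1 of the 7 genes had all stressed amygdala arrays above the handled ones, where 8.11% of all probe sets did, and 1 had them all below, where 8.48% did.
The other genes showed little in this region. Sostdc1 had 40.3, 25.4 and 28.1 under stress and 30.6, 34.1 and 28.0 after handling, so its log2 change lay between -0.40 and 0.40 at 95%. Ace had 50.04, 45.7 and 45.7 under stress and 49.7, 33.7 and 61.9 after handling, with an interval of -0.54 to 0.53. Folr1 (0.20), Aqp1 (0.21) and Calml4 (-0.04) also missed the threshold, with overlapping arrays.

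In the cortex none of the 7 passed either, against 0.123% of probe sets called higher and 0.263% lower; at an unadjusted p under 0.05 limma gave Foxj1 alone, where 10.2% of probe sets reached that level. Its intensities were 24.4, 4.47 and 12.3 in stressed cortex and 26.0, 36.2 and 25.2 in handled cortex, a log2 change of -0.65 ± 0.26 with an adjusted p of 0.3752. The groups did not overlap, though the brightest stressed array lay just under the dimmest handled one and nearly all were below the filter line. Aqp1 also had its stressed arrays (46.2, 47.6 and 49.2) below its handled arrays (63.0, 67.7 and 67.1), with a log2 change of -0.36 ± 0.32 and an adjusted p of 0.7580. These were 2 of 7 genes with all stressed arrays below, where 11.2% of all probe sets had that order, and none had all of them above, where 12.1% did.
Ttr averaged 52.8 ± 18.6 in stressed cortex and 54.5 ± 12.8 in handled cortex (SD, n = 3 each). Its log2 change there was -0.06, with a 95% interval of -0.35 to 0.24, and it turned positive without stressed cortex 2 (0.18) or handled cortex 2 (0.05). Sostdc1 (-0.15), Folr1 (-0.32), Calml4 (0.17) and Ace (-0.27) stayed below the threshold in cortex.

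The regional differences in the stress effect were tested as interaction contrasts. The Ttr change of 0.44 in amygdala, set against 1.62 in hippocampus, gave a difference of -1.17 ± 0.20 with an adjusted p of 0.0275. The change in hippocampus, set against -0.06 in cortex, differed by 1.67 ± 0.20 with an adjusted p of 7.753e-05. Between amygdala and cortex the difference was 0.50 ± 0.20, with an adjusted p of 0.4115. Ttr was the only 1 of the 7 genes called in either contrast with the hippocampus, where 0.0215% of probe sets were called lower in amygdala than in hippocampus and 0.0430% higher in hippocampus than in cortex; none of the 7 was called between amygdala and cortex (0.129% of probe sets in either direction), where limma gave Ttr alone at an unadjusted p under 0.05, a level that 9.71% of probe sets reached. These contrasts share arrays with each other.
The amygdala against hippocampus difference kept its size (-1.22 to -1.11) as each of the 12 arrays was left out, but its adjusted p stayed below the threshold in only 3 of those 12 fits, the ones without stressed hippocampus 2, stressed amygdala 2 or stressed amygdala 3. It was also lost with an offset of 1 (0.1154), with no filter (0.0601) and without the variance trend (0.1713). The hippocampus against cortex difference was called in all 12 fits (1.43 to 1.84).
For Sostdc1 the stress effect in hippocampus exceeded that in cortex by 1.07 ± 0.27 (adjusted p 0.3809), and that in amygdala was below that in hippocampus by -0.92 ± 0.27 (0.3106). For Ace the same differences were 1.16 ± 0.36 (0.5902) and -0.90 ± 0.36 (0.5263). The change of Sostdc1 in hippocampus is therefore not shown to differ from its change in the other 2 regions, although its difference from cortex passed without the variance trend (0.0498).

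Averaged over the 3 regions, 1 of the 7 genes passed, where 1.59% of probe sets were called higher and 3.07% lower. Ttr changed by 0.67 ± 0.08 (adjusted p 2.635e-05), the mean of 1.62, 0.44 and -0.06. Foxj1 had -0.50 ± 0.15 with an adjusted p of 0.0609. It was the only 1 of the 7 below 0 by more than 0.2 in each of the 3 regions, and it passed in 4 of 18 fits with 1 array left out, those without stressed amygdala 1 (0.0499), handled amygdala 3 (0.0490), handled hippocampus 3 (0.0346) or stressed cortex 1 (0.0285).

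Handled rats gave the differences between regions without stress. Between hippocampus and cortex 3 of the 7 genes were higher in hippocampus and none lower, where 12.3% of all probe sets were called higher and 13.7% lower. Ttr led, at 1102 ± 55.0 in handled hippocampus and 54.5 ± 12.8 in handled cortex, a ratio of 20.2 and a log2 difference of 4.002 ± 0.14 (adjusted p 8.293e-16). Calml4 followed with 123 ± 17.7 in hippocampus and 29.8 ± 6.39 in cortex, a difference of 1.60 ± 0.23 (1.168e-05). Folr1 had 75.9 ± 18.5 and 32.6 ± 8.09 in these 2 regions, a difference of 0.91 ± 0.21 (0.0019).
For all 3 the arrays of handled hippocampus lay above those of handled cortex, and the calls held without any 1 array. Sostdc1, at 35.5 ± 5.05 in handled hippocampus and 22.2 ± 5.95 in handled cortex, did not pass (0.44 ± 0.19, adjusted p 0.1014).

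Amygdala against cortex gave 2 calls of 7, both higher in amygdala, where 8.13% of probe sets were called higher and 6.57% lower. Foxj1, 1 of the 2, entered the test through handled amygdala. With that group left out, its mean intensity would have fallen just below the filter line (31.68). With no filter Foxj1 was not called, where 4.26% of all probe sets were called higher and 3.57% lower. Ttr had 512 ± 40.6 in handled amygdala and 54.5 ± 12.8 in handled cortex, a log2 difference of 2.92 ± 0.14 (1.576e-12). Foxj1 had 67.2 ± 15.9 in handled amygdala and 29.1 ± 6.18 in handled cortex, a difference of 0.87 ± 0.26 (0.0265). The 2 groups did not overlap for either gene. The Foxj1 call was lost without handled amygdala 1 (0.1003), handled amygdala 2 (0.1033), handled cortex 1 (0.0870) or handled cortex 3 (0.0932), with an offset of 1 (0.0862) and with no filter (0.0533).
Calml4 did not differ detectably between these regions, at 28.9 ± 14.1 in handled amygdala and 29.8 ± 6.39 in handled cortex (log2 difference -0.07, 95% interval -0.55 to 0.42). Aqp1 was lower in amygdala by -0.86 ± 0.32 and missed the threshold (0.0708), passing without handled amygdala 2 (-1.13, adjusted p 0.0332) or 3 (-1.12, 0.0354). Without handled amygdala 1 the difference shrank to -0.34 (0.4637). Its dimmer probe set, at 1.33 ± 0.50 in handled amygdala and 19.3 ± 5.79 in handled cortex, was called lower with no filter (-1.02 ± 0.24, adjusted p 0.0086).

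Between hippocampus and amygdala 2 of the 7 genes were higher in hippocampus, where 12.9% of probe sets were, and 1 was lower, where 15.7% were. Ttr was higher by 1.08 ± 0.14 (2.765e-06). Calml4 was higher by 1.67 ± 0.23 (7.162e-06) and in this comparison, unlike Ttr, set the hippocampus apart from an amygdala level near that of cortex. Ace was lower in handled hippocampus, at 18.2 ± 12.1, than in handled amygdala, at 48.4 ± 14.2, by -0.96 ± 0.26 (0.0063).
The Ace call was lost without handled hippocampus 1, its dimmest array (-0.63, adjusted p 0.0548). Of 11 striatal neuron markers, a list kept because Ace is known from those neurons, 8 passed as lower in handled hippocampus than in handled amygdala and 1 as higher. The summed intensity of 12 genes of that list, taken with no filter, ranged from 1739 to 1980 in handled hippocampus and from 3929 to 4298 in handled amygdala. The part of such neurons in the Ace difference was not tested. Under stress that sum was 5125 to 5408 in amygdala. There 3 of the 11 were called higher under stress than after handling, beside 0.456% of all probe sets, and all 11 were above 0. The log2 change of Ace in amygdala was -0.01, with a wide 95% interval of -0.54 to 0.53, and its relation to these markers was not tested.

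**Figure D3:**
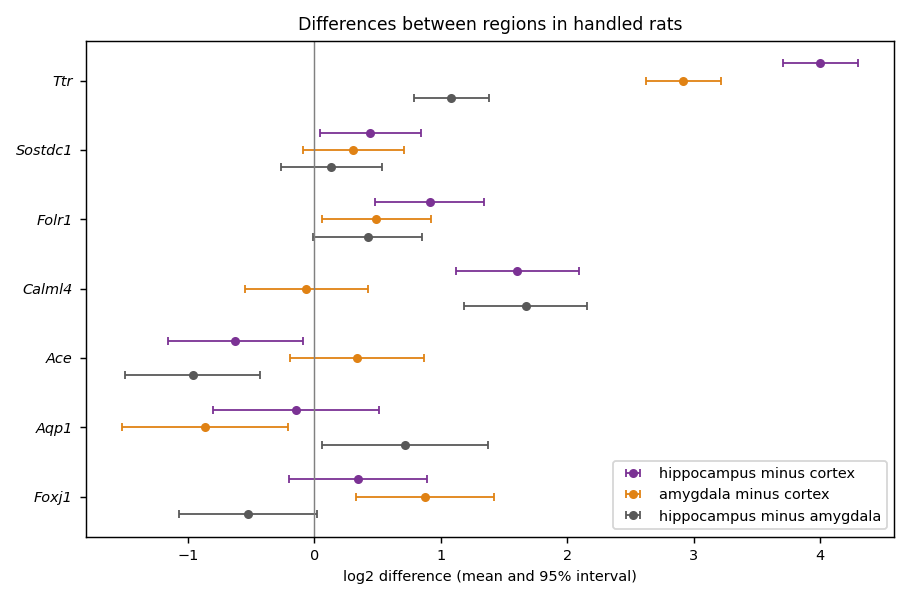
Differences between regions in handled rats for each gene (log2 scale, limma estimate from 3 against 3 arrays, bar for the 95% interval). Ttr is displaced in all 3 comparisons (4.002, 2.92 and 1.08), Calml4 only in those with the hippocampus (1.60 and 1.67), and Ace lies left of 0 between hippocampus and amygdala (-0.96).

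The order of levels differed from gene to gene. Calml4 had its highest means in stressed hippocampus (129.5 ± 4.98) and handled hippocampus (123 ± 17.7), which overlapped, and lay between 28.4 and 35.3 in the other 4 groups. Folr1 had means of 88.7 ± 10.4 in stressed hippocampus and 75.9 ± 18.5 in handled hippocampus, 62.8 ± 16.9 in stressed amygdala and 52.7 ± 15.7 in handled amygdala, and 22.9 ± 5.68 in stressed cortex and 32.6 ± 8.09 in handled cortex. Neighbours in the order of its levels overlapped, except handled amygdala and handled cortex. Sostdc1 averaged 81.4 in stressed hippocampus and between 18.3 and 35.5 in the other 5 groups. Foxj1 was highest in handled amygdala (67.2 ± 15.9) and lowest in stressed cortex (13.7 ± 10.1), and Aqp1 was highest in handled cortex (66.0 ± 2.57). Ace ranged from 18.2 in handled hippocampus to 48.4 in handled amygdala.
Sets of genes with a like pattern were sought by Pearson correlation of log2 values with Ttr over the 18 arrays, among named genes past the filter; the arrays share regions and treatments, so this is a description. Apc (0.97), Nefm (0.96), Kif26b (0.96), Tle1 (0.96), Dock10 (0.95), Dpp6 (0.95), Hsd11b1 (0.95), Kcnip2 (0.95), Cd59b (0.94) and Map7 (0.94) came closest. Of the 7 genes, Folr1 (0.90) and Sostdc1 (0.87) followed Ttr most closely, and Aqp1 had the opposite sign (-0.35). Nefm, a neurofilament subunit of neurons, had a mean of 1708 ± 35.1 in stressed hippocampus, 1563 ± 104 in handled hippocampus, 448 ± 15.04 in stressed cortex and 467 ± 16.2 in handled cortex, so that likeness over all arrays mostly tracked region.
With each region's mean taken out, the 10 genes most like Ttr were Rprd1b (0.90), Sostdc1 (0.88), Xk (0.82), Slc2a13 (0.80), Lrrc8d (0.79), Scn2b (0.78), Wrnip1 (0.78), Nif3l1 (0.78), Lrrfip1 (0.77) and Phf20l1 (0.77). Sostdc1 was second among all named genes tested. With region means out, Ttr varied mostly between stressed and handled hippocampus, so this rank largely repeats the Sostdc1 change already given there. Ace had 0.64, Folr1 0.30, Calml4 0.07, Foxj1 -0.15 and Aqp1 -0.35 on that measure, so within regions the genes did not move as 1 block. Rprd1b, a regulator of RNA polymerase II, had 110 ± 4.59 in stressed hippocampus and 62.2 ± 10.2 in handled hippocampus.

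Other genes known from the choroid plexus epithelium were listed to see whether they moved with Ttr. Of 51, 45 had a probe set and 23 passed the filter. In the hippocampus 1 of the 23 was called higher and none lower, where 0.102% and 0.263% of all probe sets were. The median log2 change was 0.11 against 0.0031 over all probe sets tested. With no filter 1 of the 45 rose (0.0451% of all probe sets did) and none fell (0.135% did), 26 were above 0 and 19 below, and the median was again 0.11.
The gene called higher was Htr2c, the serotonin 2C receptor, which neurons also carry. It had 152, 211 and 149.9 in stressed hippocampus and 114, 99.2 and 117 in handled hippocampus (log2 change 0.56 ± 0.09, adjusted p 0.0062). It was far brighter in amygdala and cortex and also rose in cortex, by 0.56 ± 0.09 (0.0043), with 932, 883 and 865 under stress and 599, 595 and 609 after handling. As the mean over its probe sets it passed in neither region (0.3128 and 0.2539).
At an unadjusted p under 0.05 limma gave 7 of the 45 in hippocampus, 6 higher and 1 lower, a level that 9.37% of all probe sets reached with no filter. Among the higher were Col8a1 (0.92, adjusted p 0.1336) and F5 (0.79, 0.2019), with larger changes than Htr2c but too dim for the filter and not called. The lower gene was Bmp6 (-0.46, 0.2746). The summed intensity of the 45 genes ranged from 12590 to 14120 in stressed hippocampus and from 12030 to 14760 in handled hippocampus. Most of that sum was Atp1b1, with means of 8115 ± 850 in stressed hippocampus and 8307 ± 1500 in handled hippocampus (SD). Dim defining markers such as Kl (means of 18.3 stressed and 14 handled) and Otx2 (15.2 and 9.33) added little. The sum therefore cannot show whether such markers moved with Ttr.

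In the amygdala none of these 23 genes rose and 1 fell, Slc15a2, a peptide transporter (-0.36 ± 0.10, adjusted p 0.0490); with no filter none of the 45 was called in either direction, where 0.187% of probe sets were called higher and 0.960% lower and limma gave 6 of the 45 at an unadjusted p under 0.05 (11.2% of all probe sets). In the cortex 1 of the 23 rose, Htr2c, and 3 fell, the same counts as among the 45 with no filter (0.0387% of probe sets higher, 0.116% lower). Igf2, insulin-like growth factor 2, averaged 142 ± 32.3 in stressed cortex and 433 ± 28.4 in handled cortex (-1.53 ± 0.12, 2.086e-07). Igfbp2, a binding protein of such factors, averaged 139 ± 24.1 and 357 ± 24.6 in the same groups (-1.28 ± 0.12, 3.244e-06). Enpp2, the enzyme that makes lysophosphatidic acid, had 399, 374 and 380 in stressed cortex and 503, 547 and 500.0 in handled cortex (-0.41 ± 0.08, 0.0139).
Igf2 and Igfbp2 are also on the list of meningeal fibroblast genes. Of the 12 tested, 7 were called lower in stressed cortex, where 0.263% of all probe sets were, and all 12 were below 0. The sums over all 14 listed genes, taken with no filter, were 2386 to 2416 in stressed cortex and 5324 to 5558 in handled cortex. The part of meningeal tissue in Igf2 and Igfbp2 was not tested. As the mean over its probe sets, Igf2 did not pass in cortex (-0.35, adjusted p 0.5406).

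Of 47 other genes of ependyma and motile cilia, 25 had a probe set and 16 passed the filter. Stress called 1 of the 16, Gas8, a part of the regulatory complex of motile cilia. Gas8 was called higher in amygdala, where 0.456% of all probe sets were called higher and 1.95% lower. It averaged 83.0 ± 18 in stressed arrays and 38.5 ± 7.57 in handled ones (0.85 ± 0.20, adjusted p 0.0173, and 0.0801 with the amygdala arrays fitted alone). No gene of this list was called in hippocampus or cortex, where median changes were -0.19 and -0.05; at an unadjusted p under 0.05 limma gave 4 of the 16 in hippocampus, where 10.9% of probe sets reached that level, and 1 in cortex, where 10.2% did. Foxj1 in amygdala thus had a negative estimate (-0.62, not called) beside a list with 12 of 16 members above 0 and a median of 0.10 (0.16 over the 25 with no filter).
In handled rats this list differed between regions. Amygdala exceeded cortex for 8 of 16 genes and fell below it for 1, with no filter for 9 of 25 (4.26% of all probe sets did so) and for 1 of 25 (3.57%). Among the 16 past the filter, Mlf1 (1.76 ± 0.22), the dynein light chain gene Dynlrb2 (1.25 ± 0.13), Tekt1, a tektin of the ciliary axoneme (0.91 ± 0.19), and Tmem212 (0.84 ± 0.20) had the largest differences, and Cd24 (-0.30 ± 0.09) was lower. Foxj1, the regulator of this programme, was called in the same direction with the filter, but not with no filter (adjusted p 0.0533).
Hippocampus against amygdala gave 1 of the 16 higher, Cd24 (0.52 ± 0.09), where 12.9% of all probe sets were, and 7 lower, where 15.7% were. The lower ones included the radial spoke genes Rsph9 (-1.39 ± 0.11) and Rsph1 (-1.30 ± 0.25), Rfx2, a transcription factor of ciliated cells (-1.03 ± 0.29), and Iqca1 (-1.01 ± 0.22). With handled amygdala left out, the mean intensities of Rfx2 and Iqca1 would have fallen below the filter line. With no filter limma gave 9 of 25 genes at an unadjusted p under 0.05, 1 higher and 8 lower, a level that 27.1% of all probe sets reached. Hippocampus against cortex gave 4 higher and 3 lower, where 12.3% and 13.7% of all probe sets were. Of the 23 choroid plexus genes, 5 were higher and 6 lower between handled hippocampus and handled cortex, against the same 12.3% and 13.7%. Between amygdala and cortex 6 were higher and 5 lower (8.13% and 6.57% of all probe sets), and between hippocampus and amygdala 5 and 3 (12.9% and 15.7%). Col9a3, a collagen (1.004 ± 0.17), Krt8, an epithelial keratin (0.92 ± 0.25), Msx1, a homeobox gene (0.72 ± 0.18), and Slc12a2 (0.58 ± 0.07) were higher in hippocampus than in cortex. Htr2c (-2.29 ± 0.09), Igfbp2 (-1.23 ± 0.12), Igf2 (-1.22 ± 0.12) and Slc13a4 (-0.82 ± 0.23) were lower there.

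**Figure D4:**
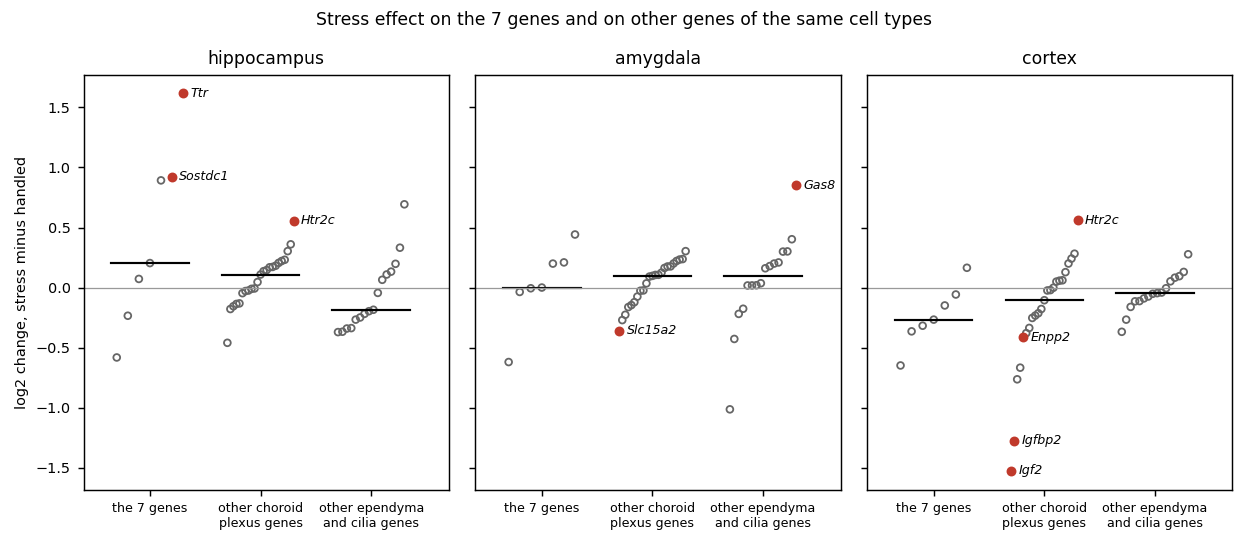
Log2 change, stress minus handled, for the 7 genes, for 23 other choroid plexus genes and for 16 other ependyma and cilia genes past the filter, in each region; filled points passed an adjusted p of 0.05, open points did not, and bars are medians. In hippocampus Ttr (1.62) lies well above the other choroid plexus genes, whose highest called member is Htr2c (0.56); in cortex Igf2 (-1.53) and Igfbp2 (-1.28) lie lowest.

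Genes that act with the 7 were followed by role. Of the carriers and enzymes of thyroid hormone and retinol, the partners of transthyretin, none of 8 tested was called in any region under stress; at an unadjusted p under 0.05 limma gave 1 in hippocampus and 2 in cortex. That level was reached by 13.6% of all probe sets in amygdala, 10.9% in hippocampus and 10.2% in cortex. Among genes of bone morphogenetic protein and Wnt signalling, on which Sostdc1 acts, 1 of 16 was called. It was the receptor Bmpr2, lower in amygdala, where 1.95% of all probe sets were. Its log2 change was -0.68 ± 0.16 (adjusted p 0.0242), and -0.17 (0.7750) as the mean over its probe sets. None of 7 genes of folate uptake and use, 4 of the renin-angiotensin system, 3 other aquaporins or the single calmodulin gene past the filter was called in any region. At an unadjusted p under 0.05 these lists gave 1 folate gene in each region, 1 renin-angiotensin gene each in hippocampus and cortex, the calmodulin gene in cortex, and no aquaporin, to be read against those shares.

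Markers of other cell types moved in the stressed hippocampus beside Ttr. Hbb, beta-globin of red blood cells, fell by 0.83 on the log2 scale, and it also fell by 0.69 in cortex and by 0.41 in amygdala. The sum of 3 blood genes was 1095 to 1317 in stressed hippocampus and 2026 to 2225 in handled hippocampus. All 10 oligodendrocyte genes were below 0, of which Cldn11 passed (-0.30), with sums of 18200 to 20590 in stressed hippocampus and 21360 to 24000 in handled hippocampus. Ptgds, which meninges and choroid plexus also make, was the 1 of 12 meningeal genes called lower (-0.35 ± 0.06), where 0.263% of all probe sets were. Col1a2 and Col3a1 also had lower means in stressed hippocampus (33.7 and 36.3) than in handled hippocampus (58.7 and 64.9), without a call. Igf2 (201 against 177) and Igfbp2 (167 against 143) had higher means there. The sums over all 14 listed meningeal genes, taken with no filter, were 2063 to 2096 in stressed hippocampus and 2381 to 2600 in handled hippocampus.
Wfs1, a marker of field CA1, fell by 0.71, while 6 of 7 hippocampus markers did not pass. None of these lists had a member called higher in stressed hippocampus, and their part in the Ttr change was not tested. The 3′ minus 5′ difference of control probe sets (log2, SD, n = 3 each) is a sign of RNA quality. For hexokinase it was 1.17 ± 0.15 in stressed hippocampus and 1.02 ± 0.11 in handled hippocampus, 1.23 ± 0.07 in stressed amygdala and 0.83 ± 0.08 in handled amygdala, and 1.28 ± 0.12 in stressed cortex and 1.11 ± 0.09 in handled cortex. For beta-actin the stressed and handled means were 1.61 ± 0.31 and 1.54 ± 0.23 in hippocampus, 2.15 ± 0.24 and 2.07 ± 0.08 in amygdala, and 1.61 ± 0.04 and 1.66 ± 0.05 in cortex. For GAPDH they were 0.23 ± 0.13 and 0.26 ± 0.10 in hippocampus, 0.45 ± 0.08 and 0.45 ± 0.04 in amygdala, and 0.24 ± 0.04 and 0.29 ± 0.04 in cortex. Hexokinase was thus higher under stress in all 3 regions and the other 2 controls moved little; their part in the results was not tested either. The dissection of choroid plexus with the tissue is not described in the labels, and the part it had in the Ttr levels cannot be told apart from a change per cell.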

How the data were processed

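Each deposited value is a linear-scale intensity of 1 probe set on 1 array; the summary method is not given in the sources used here. The authors had scaled each array: its deposited intensities had a mean of 150.04 or 150.05 after trimming 2% from each tail. That hides a change shared by most bright transcripts. Of 31099 probe sets, 20832 had 1 gene symbol, 436 several and 9831 none, with 1 symbol updated through RefSeq; 57 controls were left out. Values were log2(intensity + 16). A filter on mean intensity at the 40th percentile (31.68) left 18625 probe sets with 10267 named genes. limma 3.58.1 in R 4.3.3 fitted 6 group means over 18 arrays (12 residual and 10.1 prior degrees of freedom, variance trend), with Benjamini-Hochberg adjustment over the 18625 and two-sided tests at 0.05; the fit was tested on simulated data. The brightest probe set stood for a gene.

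The members and lists were chosen with earlier results of these data known. Named are the 7 genes; per list and regional stress contrast up to 4 called genes per direction, also between handled regions for the choroid plexus and ependyma lists; and the 10 genes most correlated with Ttr on each measure. Alternatives were median centring, quantile normalization, offsets of 1 and 64, no filter, a 60th percentile filter, no trend, a replicate block, the mean of a gene's probe sets, only the arrays compared, and leaving out each array. No 2 arrays were identical (highest correlation 0.998). Same-numbered arrays did not deviate together. Exact permutation of 3 against 3 arrays cannot go below p = 0.1 and was not used. No batch is labelled, and detection calls were not used here.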

Additional observations from a re-analysis of the deposited data

Results flagged for a closer look

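The stress effect was called as different between regions, by limma on the difference itself, for 4 of the genes described above. Of all probe sets, 0.0215% were called lower in amygdala than in hippocampus and 0.0430% higher in hippocampus than in cortex. Between amygdala and cortex 0.129% were called in either direction. For Ttr the effect in amygdala minus that in hippocampus was -1.17 (log2, adjusted p 0.0275), called in only 3 of 12 fits with an array left out. The effect in hippocampus minus that in cortex was 1.67 (7.753e-05). For Igf2 the effect in amygdala minus that in cortex was 1.499 (adjusted p 0.0001128) and in hippocampus minus cortex 1.69 (2.569e-05). For Igfbp2 the same differences were 1.05 (0.0092) and 1.48 (7.221e-05). For Enpp2 the effect in hippocampus minus that in cortex was 0.59 (0.0270). Within regions, Ttr was called higher in stressed hippocampus and Igf2, Igfbp2 and Enpp2 were called lower in stressed cortex. The Igf2 call in cortex did not hold for the mean over its probe sets (-0.35, adjusted p 0.5406). With 3 arrays a group, no test for outlying arrays was made.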

How the results depend on the processing

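Ttr in hippocampus stayed called under all 11 alternatives (log2 change 1.58 to 1.66) and all 6 fits with an array left out. The count of 2 genes called in stressed hippocampus became 1, Ttr alone, with an offset of 1, no filter, a 60th percentile filter, which drops Sostdc1, the hippocampus arrays alone and each array left out (1 to 1). In amygdala the count of 0 became 1 with an offset of 64 (Ttr 0.4096) and with the amygdala arrays alone (0.4420). The amygdala against hippocampus difference went from 1 called gene to 0 with an offset of 1, no filter, no variance trend and 9 of 12 arrays left out (0 to 1). The hippocampus against cortex difference gained Sostdc1, making 2, with no trend (adjusted p 0.0498). Averaged over regions the count was 1 to 2 with an array left out. In handled arrays amygdala against cortex gave 1 in place of 2 with an offset of 1, no filter and the 60th percentile filter (1 to 3 with an array left out). That filter, which tests fewer genes, left 1 in place of 3 in both hippocampus comparisons (3 to 4 with an array left out). Causes of the other moves were not tested.

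The labels number the arrays 1 to 3 in each group. Same-numbered arrays correlated between -0.0441 and 0.0987 in their deviations from the group means. No sign that the numbers pair samples was thus seen, but 3 arrays a group cannot exclude a weak shared effect. With the replicate number as a block, hippocampus gave 1 call (Sostdc1 adjusted p 0.0519; 0.1685 with the hippocampus arrays alone), the averaged contrast gave 1 and cortex 0; with the amygdala arrays alone Ttr passed under the block (0.4420, adjusted p 0.0457), making 1. Aqp1 passed under the block between handled amygdala and cortex (-0.8636, adjusted p 0.0452).

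Signs turned only for uncalled values, some near 0 and others, such as Aqp1 in amygdala, with a wide range as arrays were left out. In amygdala these were Sostdc1 (-0.0168 with median centring, -0.0399 with quantile normalization, -0.0065 with an offset of 1, -0.1328 to 0.0899 with an array left out), Ace (0.0030 with an offset of 1, -0.1812 to 0.1439), Calml4 (-0.3311 to 0.2008) and Aqp1 (-0.3124 to 0.4753). Elsewhere they were Ttr in cortex (-0.2215 to 0.1819), Foxj1 in hippocampus (-0.4350 to 0.0144) and Calml4 between handled amygdala and cortex (-0.3029 to 0.1380). Most of the 7 genes lay near the filter line, where 3 arrays a group limit the precision.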
